A study of Mus musculus with 12 samples.

Results

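The genes described here drive or mark the cell division cycle: 44 genes of S phase, in which DNA is copied, and of mitosis. They were taken by symbol from the entries of the count table that name 1 locus, with the entry of highest mean count where a gene had several. All 44 were found among 20114 such entries, and all 44 were among the 14039 loci with enough counts to be tested. By textbook role, 19 act in or just before S phase and 25 from G2 to the end of mitosis.

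RNA of mammary epithelial cells of adult female mice, aged 9 weeks and sorted by fluorescence, was sequenced in 3 groups of 4 libraries. Every group carried the mT-mG reporter and the SmoM2 allele, in mice of mixed Swiss Webster, C57BL/6 and 129X1/SvJ stock. SmoM2 is an active form of Smoothened, which relays Hedgehog signalling from the cell membrane. Recombined cells (mT-mG/SmoM2;MMTV-Cre) had turned green through Cre and were SmoM2 positive. Unrecombined cells came from the same genotype, had stayed red and were SmoM2 negative. Wild type cells (mT-mG/SmoM2;+) were red and carried no Cre. The MMTV promoter, active in mammary epithelium and in some other secretory epithelia, drives the Cre, and no green cells without SmoM2 were included. SmoM2, Cre activity and the green sort can therefore not be told apart. The title of the series concerns proliferation of mammary epithelial cells under Smoothened, and cell cycle genes are the transcripts that bear on it. The source animals of each library are not named in the labels, and p values therefore reflect only how much these libraries varied. In such bulk samples, fewer cycling cells and less RNA per cell cannot be told apart.

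Cells enter S phase when cyclins with their kinases release E2F factors, which switch on genes for origin licensing, the replicative helicase and nucleotide supply. Later, FOXM1 and B-MYB with the MuvB core switch on the mitotic cyclins, kinases, kinetochore proteins and spindle motors. Most of these RNAs are low in resting cells, so their level in a tissue follows the number of dividing cells. In the adult mammary gland division rises and falls with the estrous cycle.

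The promoters of these genes carry short motifs tied to the time of their expression, and 7 are shown because they contrast the S phase and the mitotic class. The motifs searched on both strands were an E2F-type site (TTTNNCGC), the cell cycle genes homology region or CHR (TTTGAA), and the CCAAT box (CCAAT). RefSeq promoters of build GRCm38.p6 held an entry for 35 of the 44 genes, each with 250 bases before and 50 after the start. These genes have 18 S phase and 21 mitotic promoters. The E2F-type motif was in 10 of 18 S phase promoters (55.6%), in 1 of 21 mitotic promoters (4.76%) and in 5.17% of all 32851 promoters. The CHR was in 2 of 18 S phase promoters (11.1%), in 15 of 21 mitotic promoters (71.4%) and in 17.9% of all. The CCAAT box was in 13 of 18 (72.2%), 18 of 21 (85.7%) and 37.4%. CHR and CCAAT box stood together in 11.1% of S phase, 71.4% of mitotic and 6.95% of all promoters. A match is a run of letters and not a measured site. The 150 bases before the start follow, with each match on either strand in capitals; in Mcm6, 2 E2F-type matches on opposite strands overlap.
Mki67 (chr7:135716380-135716529, minus strand): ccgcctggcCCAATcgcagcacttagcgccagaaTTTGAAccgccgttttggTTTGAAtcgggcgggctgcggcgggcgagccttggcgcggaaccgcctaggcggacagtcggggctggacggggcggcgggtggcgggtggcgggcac
Top2a (chr11:99024190-99024339, minus strand): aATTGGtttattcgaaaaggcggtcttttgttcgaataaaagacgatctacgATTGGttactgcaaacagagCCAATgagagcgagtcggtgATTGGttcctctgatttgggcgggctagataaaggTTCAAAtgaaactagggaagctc
Cdk1 (chr10:69352913-69353062, minus strand): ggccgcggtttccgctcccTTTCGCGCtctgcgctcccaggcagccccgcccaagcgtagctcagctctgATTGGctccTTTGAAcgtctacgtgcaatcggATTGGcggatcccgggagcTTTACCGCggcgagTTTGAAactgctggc
Kif11 (chr19:37376232-37376381, plus strand): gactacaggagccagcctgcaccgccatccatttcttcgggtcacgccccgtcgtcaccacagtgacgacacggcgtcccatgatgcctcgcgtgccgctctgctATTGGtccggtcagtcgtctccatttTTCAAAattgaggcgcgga
Mcm6 (chr1:128359706-128359855, minus strand): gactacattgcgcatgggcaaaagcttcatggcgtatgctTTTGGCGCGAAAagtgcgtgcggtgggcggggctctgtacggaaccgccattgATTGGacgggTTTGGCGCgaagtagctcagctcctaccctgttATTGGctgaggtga
Cdc6 (chr11:98908001-98908150, plus strand): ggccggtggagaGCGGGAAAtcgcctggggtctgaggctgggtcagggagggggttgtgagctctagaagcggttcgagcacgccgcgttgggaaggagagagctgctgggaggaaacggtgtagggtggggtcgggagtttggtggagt
Uhrf1 (chr17:56303187-56303336, plus strand): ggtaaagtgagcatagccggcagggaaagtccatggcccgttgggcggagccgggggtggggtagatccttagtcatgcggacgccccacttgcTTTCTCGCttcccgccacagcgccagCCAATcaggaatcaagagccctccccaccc

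Mki67, Top2a and Kif11 show CHR and CCAAT matches, and Mcm6, Cdc6 and Uhrf1 show E2F-type matches. Cdk1 is the mitotic promoter that holds both kinds.

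No member passed edgeR's test in any of the 3 comparisons, in which 6.55%, 0% and 5.22% of all loci tested did, and these genes differed mainly from library to library within the groups. Mitotic RNAs were highest in wild type library 1 and next in library 4 of each of the 3 groups. Their summed level was 284, 309, 266 and 677 CPM (reads scaled to the size of the library) in recombined libraries 1 to 4. It was 272, 233, 277 and 739 CPM in unrecombined libraries 1 to 4. In wild type libraries 1 to 4 it was 1634, 320, 254 and 699 CPM. The first of these was 5.75 times the median of the other 11 libraries, and the highest library was 7.03 times the lowest. Group means were 384 ± 196, 380 ± 240 and 727 ± 636 CPM (SD, n = 4), and the libraries of the 3 groups overlapped. Over the 18 mitotic genes with an entry of their own, the highest library was 21.1 times the lowest and wild type library 1 was 10.8 times the median of the others.

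S phase RNAs varied less as a sum, in which abundant entries such as Pcna (84.7 to 181 CPM) weigh most. Their sum was 395, 352, 486 and 465 CPM in recombined libraries 1 to 4, and 329, 352, 330 and 468 CPM in unrecombined libraries 1 to 4. In wild type libraries 1 to 4 it was 651, 391, 392 and 367 CPM. The highest was again wild type library 1, at 1.67 times the median of the other 11, and the highest library was 1.98 times the lowest. Over the 14 S phase genes with an entry of their own these values were 1.83 and 2.29. The mean log2 CPM, in which each gene weighs the same, ran from 2.39 to 4.24 over the S phase genes. Over the mitotic genes it ran from 1.28 to 4.82. Group means were 425 ± 62.1, 370 ± 66.6 and 450 ± 134 CPM (SD, n = 4). The ratio of the mitotic to the S phase sum was 2.51 in wild type library 1, 1.91 in wild type library 4, 1.58 in unrecombined library 4 and 1.46 in recombined library 4. In the other 8 libraries it lay between 0.548 and 0.879. Over genes with an entry of their own the ratio was 3.04, 2.47, 1.74 and 1.28 in the same 4 libraries and between 0.259 and 0.653 in the other 8.

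**Figure D1:**
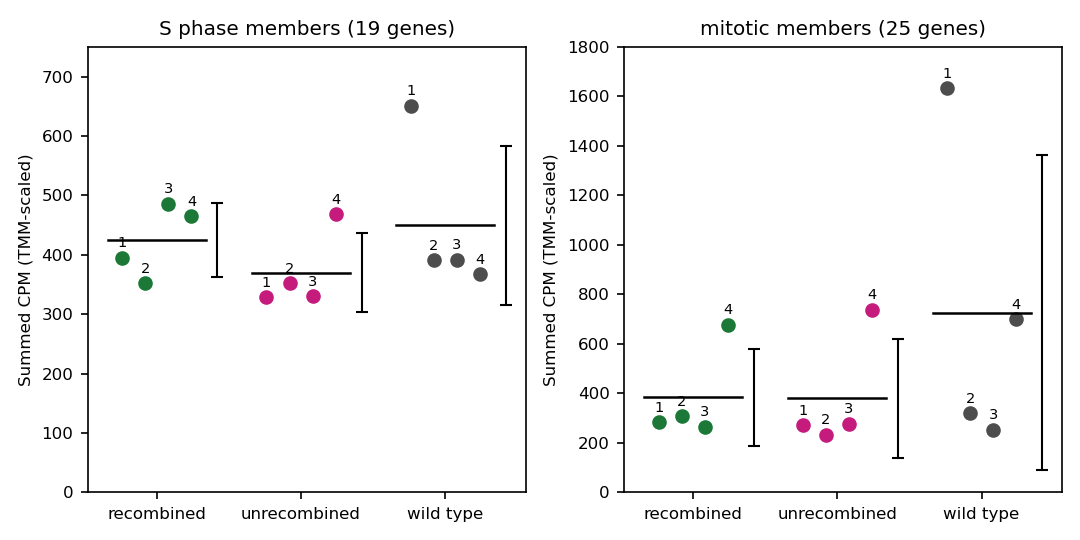
Summed CPM of the 19 S phase and the 25 mitotic genes, 1 point per library (numbers are the replicate numbers of the labels); horizontal lines are group means and vertical bars the SD beside them (n = 4). The top point in both panels is wild type library 1, and library 4 of each group is the next in the mitotic panel, between 677 and 739 CPM.

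Total counts per library lay between 19581993 and 34779433, and mitochondrial loci took between 13.1% and 27.7% of them. Hedgehog targets followed the labels. Ptch1, the receptor that Hedgehog signalling induces, rose by 3.58 on the log2 scale in recombined against wild type libraries (SE 0.443, edgeR adjusted p = 0.000427), with 434 ± 284 CPM against 36.3 ± 1.54 CPM (SD, n = 4). The Hedgehog target sum lay between 156.1 and 911.2 CPM in recombined, 37.9 and 77.8 CPM in unrecombined and 39.9 and 44.8 CPM in wild type libraries. Markers of luminal epithelium (Epcam, Krt8, Krt18, Krt19 and Cdh1) summed to between 2242 and 6109 CPM and were present in all 12 libraries. Of 8 markers of hormone-sensing luminal cells, 7 fell in recombined against wild type libraries, where 6.55% of all loci passed in either direction. They summed to between 631.2 and 1859 CPM in recombined, 2716 and 4553 CPM in unrecombined and 3125 and 6113 CPM in wild type libraries. Other cells were present: salivary gland markers reached 1298 to 93983 CPM in recombined and unrecombined libraries 1 and 2 and wild type library 2, and stayed under 100 CPM in the other 7. The 4 libraries with the highest mitotic sums are all among these 7. Fibroblast markers summed to between 205.1 and 571.3 CPM in recombined, 5113 and 7268 CPM in unrecombined and 1387 and 3392 CPM in wild type libraries. B cell markers summed to at most 3.66 CPM and T cell markers to at most 5.79 CPM in any library, with 1.33 and 1.19 CPM in wild type library 1. Macrophage markers were highest in wild type library 4, at 93.2 CPM, and lay between 12.4 and 43.5 CPM elsewhere. Steroid hormone response markers summed to between 58.7 and 317.3 CPM in recombined, 238.2 and 610.5 CPM in unrecombined and 388.4 and 952.5 CPM in wild type libraries. The sum was 587.6 CPM in wild type library 1, the third highest of the 12. Most of that sum was Areg (402 CPM) and Pgr (148 CPM). Tnfsf11 (7.8 CPM) and Calca (23.5 CPM) were highest of all libraries in wild type library 1. Areg, Pgr and Greb1 were highest in wild type library 2, and Wnt4 in unrecombined library 4. The part of these cells, or of hormone response, in the order of the libraries was not tested.

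Values per library are CPM with TMM scaling, given for libraries 1 to 4 of each group. The 3 differences of a gene are log2 differences of recombined against wild type, unrecombined against wild type and recombined against unrecombined, always in this order, from the quasi-likelihood test of edgeR. Adjusted p values cover all 14039 loci, with a threshold of 0.05. Positions are the starts in build mm9, as the table gives them, which is not the build of the promoters above. In 12 of the 44 genes the entry joins the gene with another symbol, and for 10 of these the other symbol is another gene. The reads of the genes in such an entry cannot be told apart, since no strand setting is stated.

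**Figure D2:**
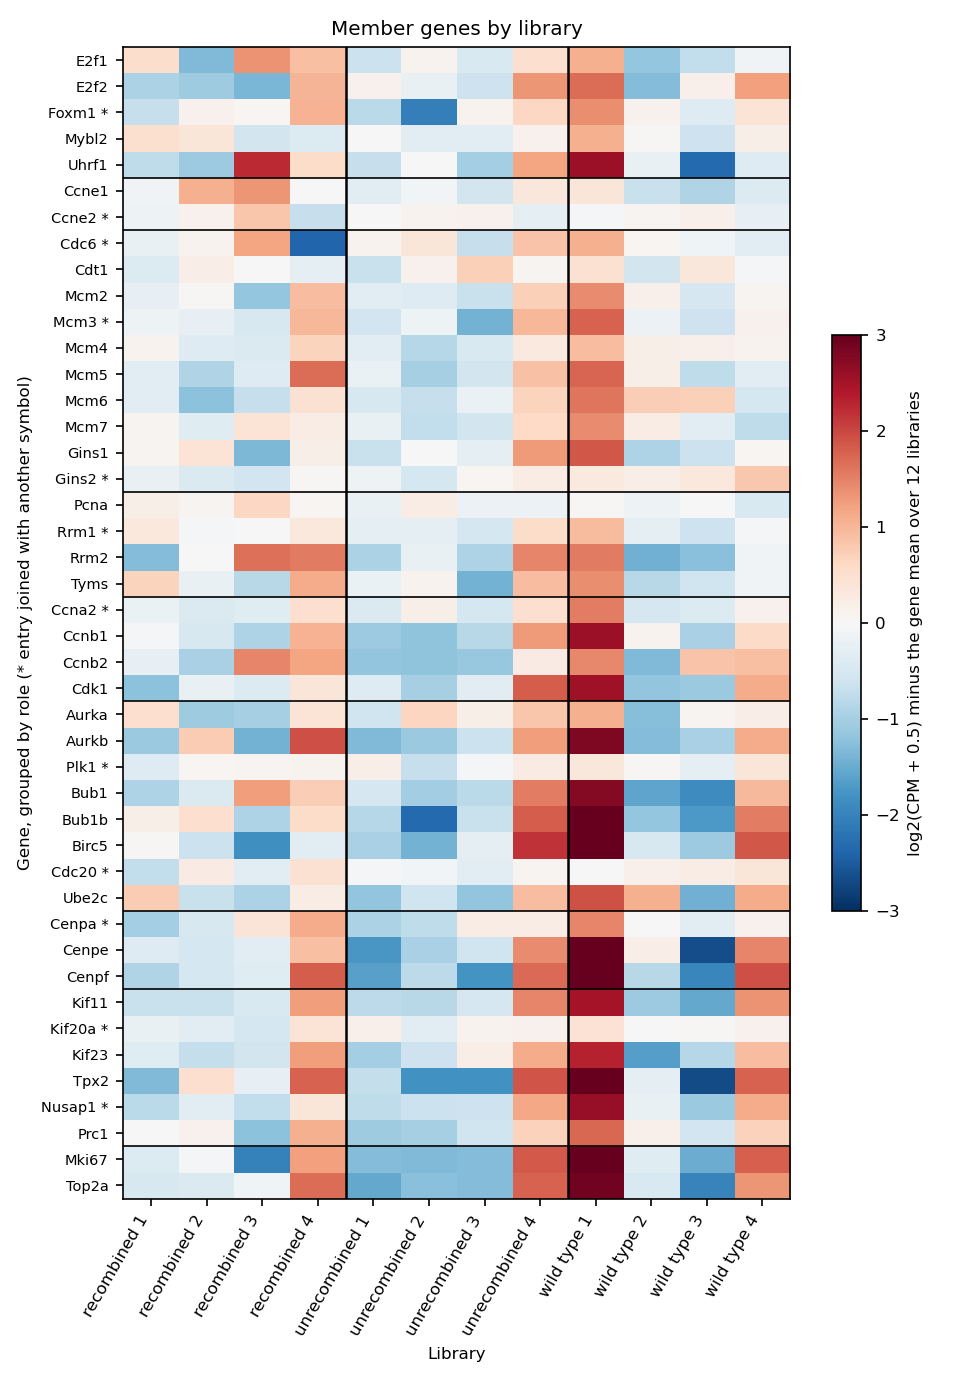
Level of each of the 44 genes in the 12 libraries, as log2(CPM + 0.5) minus the mean of the gene over the 12 libraries, with the colour scale ending at 3 in either direction; rows are grouped by role and a star marks a joined entry. The column of wild type library 1 is red in nearly all rows, and the columns of library 4 of each group are red in most mitotic rows.

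Among the transcription and chromatin factors, E2f1 and Uhrf1 were both high in recombined library 3 and wild type library 1. E2f1 (chromosome 2, start 154385374) encodes an activating E2F factor. In recombined libraries E2f1 was 2.6, 0.367, 4.95 and 3.5 CPM, in unrecombined libraries 0.869, 1.81, 1.08 and 2.58 CPM and in wild type libraries 3.99, 0.464, 0.785 and 1.51 CPM. Differences for E2f1 came to 0.75, -0.09 and 0.84 (SE 0.783, 0.781 and 0.785), with adjusted p of 0.646, 1 and 0.633. Recombined library 3 and wild type library 1 were the highest, recombined library 2 the lowest, and the groups overlapped.

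Uhrf1 (chromosome 17, start 56442759) encodes the protein that brings DNA methyltransferase to newly copied DNA. Uhrf1 stood at 1.88, 1.39, 18.7 and 5.4 CPM in recombined, 1.99, 3.54, 1.51 and 8.73 CPM in unrecombined and 23.4, 2.98, 0.305 and 2.58 CPM in wild type libraries. The fit gave Uhrf1 differences of -0.10, -0.89 and 0.79, SE of 1.06, 1.07 and 1.07 and adjusted p of 0.974, 1 and 0.767. Both wild type library 1 and recombined library 3 stood far above the rest, and wild type library 3 far below. Without wild type library 1 the first difference was 1.80, and without recombined library 3 the third was -0.43, so the sign of each rests on 1 library.

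Foxm1 (chromosome 6, start 128313011), the forkhead factor of the mitotic genes, shares its entry with 1 other symbol. Foxm1 measured 3.58, 6.78, 6.41 and 13.2 CPM in recombined, 3.26, 1.09, 6.65 and 9.68 CPM in unrecombined and 16.8, 6.77, 4.58 and 8.35 CPM in wild type libraries. The differences of Foxm1 were -0.29, -0.82 and 0.53, with SE of 0.594, 0.598 and 0.597 and adjusted p of 0.842, 1 and 0.71. The highest were wild type library 1 and recombined library 4. E2f2, a second activating E2F, ranged from 0.0538 CPM in recombined library 3 to 4.09 CPM in wild type library 1, and Mybl2, which encodes B-MYB, from 0.175 CPM in wild type library 3 to 1.7 CPM in wild type library 1. Their first differences were -1.49 and -0.44, and neither passed.

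The G1/S cyclins had first differences above 0, and neither passed the test. Ccne1 (chromosome 7, start 38883002) encodes cyclin E1, which activates the kinase CDK2 at the start of S phase. In recombined libraries Ccne1 was 0.806, 2.46, 3.02 and 0.907 CPM, in unrecombined libraries 0.616, 0.829, 0.467 and 1.29 CPM and in wild type libraries 1.33, 0.387, 0.262 and 0.573 CPM. Differences for Ccne1 came to 1.48, 0.32 and 1.16 (SE 0.731, 0.722 and 0.724), with adjusted p of 0.276, 1 and 0.438. Recombined libraries 2 and 3 were the highest of all, while recombined libraries 1 and 4 lay within the range of the wild type libraries. The interval of the first difference ran from -0.09 to 3.05.

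Ccne2 (chromosome 4, start 11118500), for cyclin E2, shares its entry with Ints8. Ccne2 stood at 52.9, 65, 106 and 36.3 CPM in recombined, 60, 63.5, 64.6 and 48.4 CPM in unrecombined and 56.9, 63.2, 66.1 and 49.5 CPM in wild type libraries. The fit gave Ccne2 differences of 0.14, 0.01 and 0.14, SE of 0.258, 0.258 and 0.258 and adjusted p of 0.816, 1 and 0.846. Recombined library 3 was high and recombined library 4 low, and the other 10 libraries lay between 48.4 and 66.1 CPM. Without recombined library 3 the first and the third differences were both -0.19.

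The 10 genes of origin licensing and the replicative helicase had first differences between -1.15 and -0.16, and none passed. Mcm2 (chromosome 6, start 88833467), encodes a subunit of the MCM helicase that unwinds DNA. Mcm2 measured 3.29, 4.11, 1.51 and 8.12 CPM in recombined, 3.04, 2.94, 2.34 and 6.86 CPM in unrecombined and 11.5, 4.53, 2.66 and 4.23 CPM in wild type libraries. The differences of Mcm2 were -0.43, -0.60 and 0.17, with SE of 0.572, 0.573 and 0.572 and adjusted p of 0.735, 1 and 0.92. The highest were wild type library 1 and library 4 of the recombined and unrecombined groups; without wild type library 1 the first difference was 0.16.

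Mcm4 (chromosome 16, start 15623989) encodes another subunit of the same ring. In recombined libraries Mcm4 was 41.7, 29.5, 28.4 and 61.6 CPM, in unrecombined libraries 30.7, 20.9, 27.9 and 46.9 CPM and in wild type libraries 73.6, 43.7, 42.5 and 41.5 CPM. Differences for Mcm4 came to -0.32, -0.67 and 0.35 (SE 0.303, 0.304 and 0.303), with adjusted p of 0.607, 1 and 0.603. Its second difference had an unadjusted p of 0.0445, and its interval ran from -1.32 to -0.02. Levels peaked in wild type library 1 and were lowest in unrecombined library 2, and the other 3 wild type libraries lay close together.

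Gins2 (chromosome 8, start 123012765), a subunit of the GINS complex that joins the helicase at origins, shares its entry with Gse1. Gins2 stood at 39.6, 34.1, 30.8 and 47.2 CPM in recombined, 41.6, 31.7, 47.7 and 53.7 CPM in unrecombined and 56.5, 52.6, 57.6 and 81.2 CPM in wild type libraries. The fit gave Gins2 differences of -0.71, -0.50 and -0.20, SE of 0.21, 0.209 and 0.209 and adjusted p of 0.0602, 1 and 0.675. All 4 recombined libraries lay below all 4 wild type libraries, as in 5.91% of all loci. Its first difference had the smallest adjusted p of any member, and 4 of 24 alternatives brought it under the threshold, between 0.0197 and 0.204. Wild type library 4 was the highest here, not wild type library 1, so the entry did not follow the order of the mitotic genes. Its reads cannot be assigned to Gins2 rather than Gse1.

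The other subunits and loading factors followed wild type library 1 for the most part. Mcm6 ranged from 11.4 CPM in recombined library 2 to 84.8 CPM in wild type library 1, with a first difference of -1.15 (interval -2.13 to -0.18, unadjusted p = 0.0231, adjusted p = 0.163). Its means were 22 ± 11.5, 26.2 ± 12.4 and 49 ± 27.1 CPM (SD, n = 4) in recombined, unrecombined and wild type libraries. Mcm3 (2.77 to 29.3 CPM), Mcm5 (2.45 to 19.4 CPM), Mcm7 (5.84 to 28.5 CPM) and Gins1 (0.108 to 5.14 CPM) were also highest in wild type library 1. Cdt1, which loads the MCM ring onto origins, was flatter, from 2.64 to 7.73 CPM, and highest in unrecombined library 3. Cdc6, its partner in loading, ranged from 0.165 CPM in recombined library 4 to 7.38 CPM in recombined library 3.

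Genes of the replication clamp and nucleotide supply had first differences between 0.03 and 0.72. Pcna (chromosome 2, start 132075021) encodes the sliding clamp that holds DNA polymerase on its template. Pcna measured 133, 124, 181 and 121 CPM in recombined, 100, 136, 103 and 104 CPM in unrecombined and 119, 105, 116 and 84.7 CPM in wild type libraries. The differences of Pcna were 0.40, 0.06 and 0.34, with SE of 0.173, 0.173 and 0.173 and adjusted p of 0.212, 1 and 0.332. The 4 recombined libraries were higher than each wild type library, as in 6.33% of all loci, by a small margin (121 against 119 CPM). Unrecombined library 2 lay above 3 of the recombined libraries. The first difference had an unadjusted p of 0.0382 and an interval from 0.02 to 0.77. Pcna had the lowest biological coefficient of variation of the members (0.22), a measure of spread described further on.

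Rrm1 (chromosome 7, start 109590208), the large subunit of ribonucleotide reductase, shares its entry with 1 other transcript. In recombined libraries Rrm1 was 48.7, 37.6, 38.4 and 48.9 CPM, in unrecombined libraries 31.5, 31.4, 26.8 and 56.9 CPM and in wild type libraries 75.3, 31.9, 25 and 37.8 CPM. Differences for Rrm1 came to 0.03, -0.21 and 0.24 (SE 0.321, 0.321 and 0.321), with adjusted p of 0.975, 1 and 0.759. Levels peaked in wild type library 1 and unrecombined library 4. Rrm2, the small subunit whose level sets the activity of that enzyme in S phase, ranged more widely, from 1.28 CPM in wild type library 2 to 14.8 CPM in recombined library 3. Tyms, for thymidylate synthase, ranged from 3.92 CPM in unrecombined library 3 to 30.5 CPM in wild type library 1.

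The mitotic cyclins and their kinase had differences below 0 in both comparisons with wild type, and none passed. Ccna2 (chromosome 3, start 36451527), for cyclin A2, shares its entry with Exosc9. Ccna2 stood at 20.5, 17.3, 18.3 and 33.8 CPM in recombined, 17.4, 26.5, 16.1 and 33.8 CPM in unrecombined and 69.1, 16.4, 17.6 and 25.8 CPM in wild type libraries. The fit gave Ccna2 differences of -0.52, -0.46 and -0.06, SE of 0.43, 0.43 and 0.43 and adjusted p of 0.545, 1 and 0.961. Wild type library 1 was about as high as the next 2 libraries together, and the other 3 wild type libraries lay within the range of the other groups. Without wild type library 1 the first difference was 0.17.

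Ccnb1 (chromosome 13, start 101548693) encodes cyclin B1, which drives entry into mitosis. Ccnb1 measured 0.597, 0.33, 0.108 and 1.86 CPM in recombined, 0.0362, 0, 0.144 and 2.27 CPM in unrecombined and 6.34, 0.735, 0.0873 and 1.22 CPM in wild type libraries. The differences of Ccnb1 were -1.53, -1.76 and 0.23, with SE of 1.43, 1.44 and 1.41 and adjusted p of 0.602, 1 and 0.955. It was near 0 in unrecombined libraries 1 to 3, recombined library 3 and wild type library 3, and highest in wild type library 1. Counts behind these values ran from 0 to 186 reads. Leaving out wild type library 1 gave a first difference of 0.09.

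Ccnb2 (chromosome 9, start 70255495), for cyclin B2, is the member with the smallest adjusted p in recombined against unrecombined libraries. In recombined libraries Ccnb2 was 5.76, 3.26, 19.9 and 16.5 CPM, in unrecombined libraries 2.79, 2.71, 2.88 and 8.39 CPM and in wild type libraries 19.6, 2.48, 12.9 and 13.3 CPM. Differences for Ccnb2 came to -0.09, -1.52 and 1.43 (SE 0.639, 0.655 and 0.654), with adjusted p of 0.96, 1 and 0.264. Recombined libraries 3 and 4 and wild type libraries 1, 3 and 4 were high, while 3 of the unrecombined libraries were low. The second difference had an unadjusted p of 0.0356 and the third 0.0458. Ccnb2 did not follow the order of the other mitotic genes in wild type library 3 and recombined library 3.

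Cdk1 (chromosome 10, start 68799382) encodes the kinase that cyclins A and B activate. Cdk1 stood at 0.239, 0.99, 0.808 and 1.73 CPM in recombined, 0.833, 0.377, 0.898 and 5.64 CPM in unrecombined and 9.67, 0.271, 0.305 and 3.23 CPM in wild type libraries. The fit gave Cdk1 differences of -1.84, -0.80 and -1.04, SE of 1.12, 1.08 and 1.1 and adjusted p of 0.389, 1 and 0.686. Wild type library 1, unrecombined library 4 and wild type library 4 were the highest, in that order. Without wild type library 1 the second difference was 0.61, and without unrecombined library 4 the third was 0.41.

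Among the 8 kinases, checkpoint proteins and parts of the anaphase-promoting complex, the 2 entries of highest mean level were joined entries that varied little. Plk1 (chromosome 7, start 129276554), a kinase of spindle assembly and mitotic exit, shares its entry with Dctn5. Plk1 measured 20.4, 27.8, 28.5 and 28.8 CPM in recombined, 31, 16.4, 25.8 and 31.7 CPM in unrecombined and 34.3, 27.5, 22.2 and 34.4 CPM in wild type libraries. The differences of Plk1 were -0.17, -0.18 and 0.01, with SE of 0.239, 0.239 and 0.239 and adjusted p of 0.754, 1 and 0.989. Cdc20 (chromosome 4, start 118100697), the activator of the anaphase-promoting complex, shares its entry with Elovl1. In recombined libraries Cdc20 was 10.2, 20.8, 13.8 and 23.9 CPM, in unrecombined libraries 16.5, 16.4, 13.7 and 18.5 CPM and in wild type libraries 17.4, 19.4, 20.2 and 22.3 CPM. Differences for Cdc20 came to -0.21, -0.29 and 0.08 (SE 0.262, 0.262 and 0.262), with adjusted p of 0.719, 1 and 0.917. Plk1 was highest in wild type libraries 4 and 1 and unrecombined library 4, and Cdc20 in recombined library 4 and wild type library 4. Neither entry showed the wide gaps of most other mitotic genes, and the groups overlapped in both.

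The 6 members of this role with an entry of their own were all highest in wild type library 1. Birc5, which encodes survivin of the chromosomal passenger complex, was 20.4 CPM in wild type library 1, 11 CPM in unrecombined library 4 and 8.75 CPM in wild type library 4. It lay between 0.215 and 2.12 CPM in the other 9 libraries. Its first difference was -2.62 (interval -5.08 to -0.16, unadjusted p = 0.0384, adjusted p = 0.213), the lowest of any member. Aurkb, the kinase of the same complex, ranged from 0 CPM in recombined library 3 to 8.86 CPM in wild type library 1. Aurka, a kinase of the spindle poles, ranged only from 0.619 to 5.21 CPM. The spindle checkpoint kinase Bub1 (0.218 to 17.4 CPM) and its relative Bub1b (0.226 to 31.3 CPM) were highest in wild type library 1. So was Ube2c, the ubiquitin conjugating enzyme of the anaphase-promoting complex (0.698 to 11.7 CPM).

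At the kinetochore, Cenpe (chromosome 3, start 134875526) encodes a motor that links chromosomes to spindle fibres. Cenpe stood at 11.5, 10.3, 12.1 and 28.9 CPM in recombined, 4.2, 7.54, 9.88 and 41.5 CPM in unrecombined and 142, 17.6, 1.96 and 42.7 CPM in wild type libraries. The fit gave Cenpe differences of -1.70, -1.69 and -0.01, SE of 1.02, 1.02 and 0.998 and adjusted p of 0.391, 1 and 0.998. Levels were by far the highest in wild type library 1 and the lowest in wild type library 3. With 1 library left out the first difference of Cenpe ran from -2.18 to -0.40 and the second from -2.82 to -0.39, smallest without wild type library 1. Cenpf (chromosome 1, start 191464492) encodes a large kinetochore protein that accumulates in G2. Cenpf measured 6.15, 8.1, 9.15 and 42.9 CPM in recombined, 3.51, 6.67, 3.09 and 39.4 CPM in unrecombined and 123, 6.46, 2.71 and 47.1 CPM in wild type libraries. The differences of Cenpf were -1.44, -1.76 and 0.33, with SE of 1.21, 1.23 and 1.2 and adjusted p of 0.564, 1 and 0.925. Library 4 of each group formed a second tier, between 39.4 and 47.1 CPM. With 1 library left out the first difference of Cenpf ran from -2.53 to -0.18 and the second from -3.34 to -0.51, again smallest without wild type library 1. Cenpa, the histone variant that marks centromeres, varied less, from 0.388 to 4.5 CPM.

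Of the spindle motors and midzone proteins, Kif20a (chromosome 18), a motor of the central spindle, shares its entry with Cdc23 and Brd8. In recombined libraries Kif20a was 105, 97.7, 84.7 and 162 CPM, in unrecombined libraries 137, 97.1, 131 and 134 CPM and in wild type libraries 165, 124, 126 and 133 CPM. Differences for Kif20a came to -0.28, -0.13 and -0.15 (SE 0.199, 0.199 and 0.199), with adjusted p of 0.465, 1 and 0.758. All 12 libraries lay between 84.7 and 165 CPM, and the groups overlapped. Prc1 (chromosome 7, start 87439350) bundles the fibres of the central spindle. Prc1 stood at 12.2, 13.4, 4.85 and 25.9 CPM in recombined, 5.54, 5.8, 7.91 and 19.9 CPM in unrecombined and 41.3, 13.6, 8.03 and 20.1 CPM in wild type libraries. The fit gave Prc1 differences of -0.56, -1.09 and 0.53, SE of 0.572, 0.577 and 0.573 and adjusted p of 0.638, 1 and 0.698. Levels were highest in wild type library 1 and next in recombined library 4.

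Other genes of this role varied more between libraries. Kif11, the motor that pushes the spindle poles apart, was 61 CPM in wild type library 1, 29.2 CPM in unrecombined library 4, 27.2 CPM in wild type library 4 and 25.4 CPM in recombined library 4. The other 8 libraries lay between 3.23 and 7.38 CPM. Kif23, a motor needed for cytokinesis, ranged from 1.55 to 31.5 CPM, and Tpx2, which activates Aurora A on the spindle, from 0.436 to 46.9 CPM. Nusap1, a fibre binding protein whose entry is joined with Oip5, ranged from 2.14 to 34.8 CPM. Its first difference was -1.68 (interval -3.29 to -0.07, unadjusted p = 0.0419, adjusted p = 0.223).

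The cycling marker and the mitotic topoisomerase differed widely between libraries. Mki67 (chromosome 7, start 142881470) encodes Ki-67, the nuclear protein used to stain dividing cells. Mki67 measured 36, 46.8, 11.5 and 113 CPM in recombined, 19.3, 19, 19.1 and 175 CPM in unrecombined and 504, 37.4, 16.9 and 168 CPM in wild type libraries. The differences of Mki67 were -1.81, -1.64 and -0.16, with SE of 1.2, 1.2 and 1.17 and adjusted p of 0.454, 1 and 0.963. The peak was in wild type library 1, and library 4 of each group formed a second tier. Unrecombined libraries 1 to 3 lay within 19 to 19.3 CPM, and without unrecombined library 4 the third difference of Mki67 was 1.44. Its first difference was -0.51 and its second -0.35 without wild type library 1, and with 1 library left out these ran from -2.53 to -0.51 and from -3.25 to -0.35.

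Top2a (chromosome 11, start 98854260) encodes the enzyme that untangles chromosomes before they part. In recombined libraries Top2a was 20.1, 20.7, 25.8 and 91.2 CPM, in unrecombined libraries 9.42, 11.6, 11.1 and 97.8 CPM and in wild type libraries 212, 20.4, 6.63 and 71.1 CPM. Differences for Top2a came to -0.97, -1.25 and 0.28 (SE 1.12, 1.12 and 1.11), with adjusted p of 0.687, 1 and 0.93. The same 4 libraries were the highest, and the groups overlapped. The first difference was 0.27 without wild type library 1.

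Over all members, wild type library 1 held the highest value of the 12 libraries in 33 of 44 genes, 22 of 25 mitotic and 11 of 19 S phase. Of all loci tested, 5.91% were highest in that library. Next came recombined library 3, with the highest value of 6 S phase genes (E2f1, Ccne1, Ccne2, Cdc6, Pcna and Rrm2) and of 1 mitotic gene (Ccnb2), and of 18.9% of all loci. For wild type library 1 a place among the 4 highest libraries was found in 41 of 44 genes, for unrecombined library 4 in 36 and for recombined library 4 in 31. The shares of all loci tested were 32.1%, 30.4% and 37.2%. Wild type library 4 was among the 4 highest in 21 of 25 mitotic and 3 of 19 S phase genes, against 31.4% of all loci. These 4 libraries, taken from the order of the mitotic sums, were together the 4 highest in 14 of 25 mitotic genes, 2 of 19 S phase genes and 0.969% of all loci tested. The mitotic count follows in part from that choice, since the same genes made up the sums. At the other end, wild type library 3 was the lowest of the 12 in 9 mitotic and 3 S phase genes, against 3.13% of all loci.

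**Figure D3:**
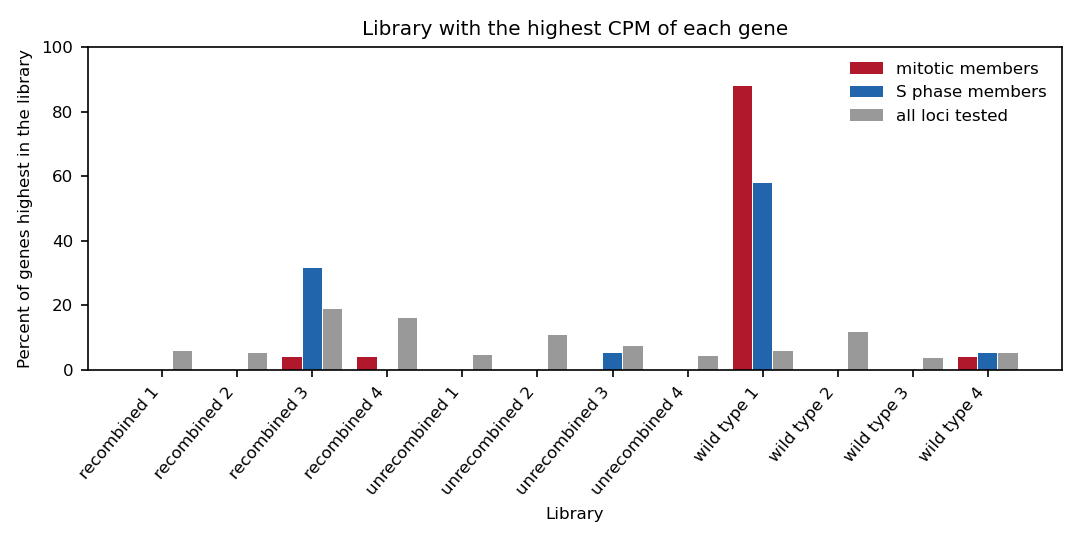
Percent of the 25 mitotic genes, the 19 S phase genes and all 14039 loci tested that had their highest CPM in each library. The bars of wild type library 1 hold 22 of 25 mitotic and 11 of 19 S phase genes, against 5.91% of all loci.

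The spread within groups was larger for these genes than for most loci. Genes were not matched for level in any comparison of spread here, and the part of level in the spread was not tested. The biological coefficient of variation, edgeR's estimate of the relative spread between libraries of a group beyond counting noise, had a median of 0.71 over the members. It was 0.585 for S phase and 0.77 for mitotic genes, against 0.388 for all loci tested. It lay above that median in 36 of 44 members, and was at least 1 in 8 mitotic genes and 1 S phase gene, against 7.16% of all loci. The 18 mitotic genes with an entry of their own had a median of 0.997, and the 12 members in joined entries one of 0.386. With each library left out in turn the mitotic median stayed between 0.728 and 0.802 and the S phase median between 0.524 and 0.605, against 0.368 to 0.411 for all loci. The median coefficient of variation of the mitotic genes was 65.6% in recombined, 96.7% in unrecombined and 112% in wild type libraries, against 40.6%, 27.7% and 26.6% for all loci. S phase genes had 58.1%, 47.8% and 74.8%.

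**Figure D4:**
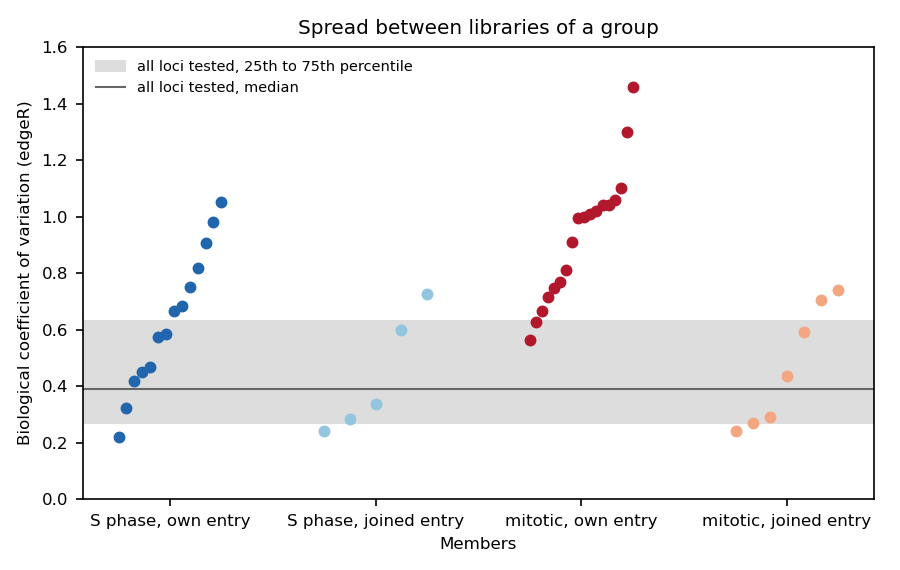
Biological coefficient of variation of each member, split by phase and by whether the entry holds other symbols; the band spans the 25th to 75th percentile (0.271 to 0.629) and the line the median (0.388) of all loci tested. Most mitotic genes with an entry of their own lie above the band.

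The comparison of recombined with wild type libraries asks whether SmoM2 positive cells differ in these genes from cells without Cre. By edgeR 0 of 44 members passed, against 6.55% of all loci tested, and 5 of 44 (11.4%: Mcm6, Gins2, Pcna, Birc5 and Nusap1) had an unadjusted p under 0.05, against 20.6% of loci. DESeq2 called 1 member (Gins2, adjusted p = 0.0258) and limma-voom 0. Groups did not overlap in 2 members (4.55%), against 12.2% of loci: Pcna, higher, as in 6.33% of loci, and Gins2, lower, as in 5.91%. The median log2 difference was -0.45 over all members, -0.17 for S phase and -0.92 for mitotic genes, against -0.02 for all loci. The difference lay below 0 in 37 of 44 members, including all 25 mitotic genes, against 51.5% of loci. Leaving out wild type library 1 gave medians of 0.14, 0.37 and 0.02, and leaving out recombined library 4 gave -0.92, -0.26 and -1.59. The mitotic median was -1.59 with the label number series as a covariate, -0.48 with the replicate block and -0.38 with limma-voom. That block joins libraries by replicate number, also for wild type, where no pairing is known. The median standard error was 0.749 over the members and 0.37 over all loci.

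Unrecombined against wild type libraries compares red cells of animals with and without Cre. By edgeR 0 of 44 members passed, as 0% of all loci tested did, and every member had an adjusted p of 1. An unadjusted p under 0.05 was found for 3 members (6.82%: Mcm4, Gins2 and Ccnb2), against 3.85% of loci. DESeq2 and limma-voom called 0 members, against 78 and 18 of all loci. No member had groups without overlap, against 4.42% of loci. The difference lay below 0 in 39 of 44 members, against 50.3% of loci. Medians were -0.72 over all members, -0.37 for S phase and -1.13 for mitotic genes, against 0.00 for all loci. Without wild type library 1 they were -0.01, 0.22 and -0.12, and without unrecombined library 4 they were -1.26, -0.92 and -2.11.

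Recombined against unrecombined libraries compares green and red cells of 1 genotype, and shares libraries with both other comparisons. Again 0 of 44 members passed, against 5.22% of loci, and 1 member (2.27%: Ccnb2) had an unadjusted p under 0.05, against 18% of loci. DESeq2, limma-voom and edgeR with the replicate number as a block called 0 members, where DESeq2 called 1349 of all loci. No member had groups without overlap, against 11.3% of loci. The difference lay below 0 in 16 of 44 members, against 50.6% of loci. Medians were 0.20, 0.24 and 0.08, against -0.01 for all loci. Without unrecombined library 4 they were 0.70, 0.60 and 1.02, and without recombined library 4 they were -0.29, 0.07 and -0.38. The mitotic median, close to 0, also turned negative without unrecombined library 1 (-0.03), 2 (-0.08) or 3 (-0.01), so it has no settled direction.

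**Figure D5:**
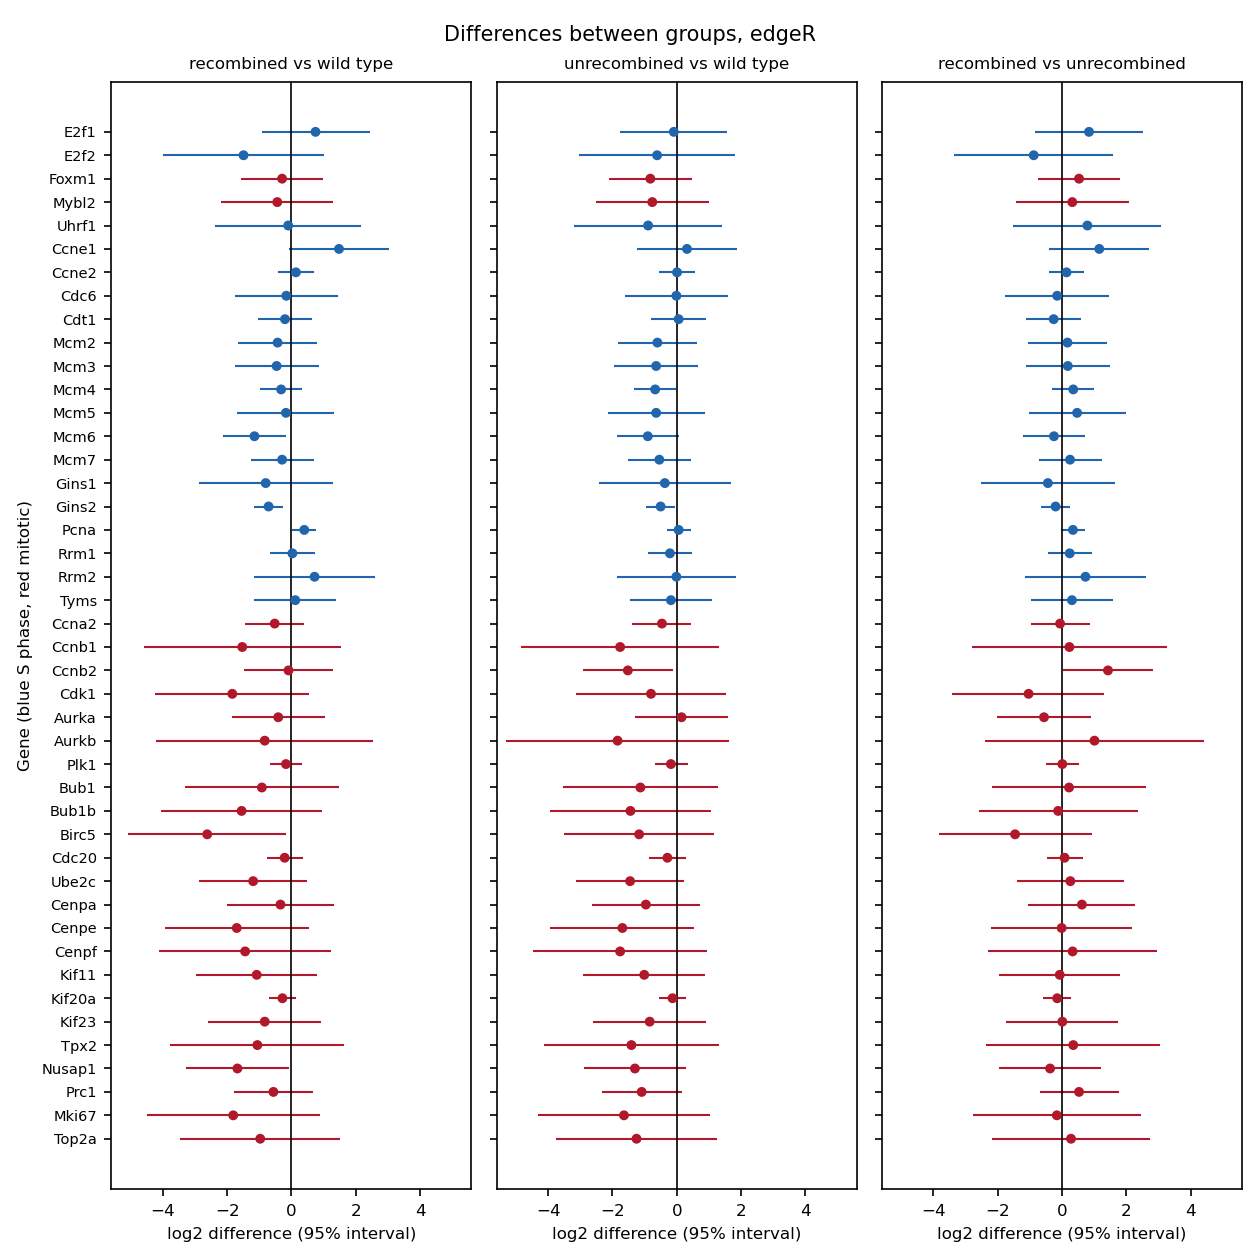
Log2 difference of each member in the 3 comparisons, with its 95% interval from edgeR; blue marks S phase and red mitotic genes, and the vertical line is 0. In the first panel all 25 mitotic points lie left of 0, and most intervals cross it.

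The labels number the libraries in 2 series, the 23000s and the 24000s, whose meaning is not stated. The first holds wild type library 1, and the second holds library 4 of each group. Within the first series the mitotic sum averaged 297 CPM in 2 recombined, 253 CPM in 2 unrecombined and 736 CPM in 3 wild type libraries. Within the second it averaged 471 and 508 CPM in 2 recombined and 2 unrecombined libraries and was 699 CPM in the 1 wild type library. In the first series the wild type mean rested on wild type library 1, the others being 320 and 254 CPM, and in the second the wild type library lay below unrecombined library 4 (739 CPM). The S phase sum averaged 374, 340 and 478 CPM in recombined, unrecombined and wild type libraries of the first series, and 476, 399 and 367 CPM in the second. With the series as a covariate edgeR called 1 member in recombined against wild type (Gins2, adjusted p = 0.0303) and 0 in the others.

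Other cell cycle genes were read from 4 lists chosen by role. Of 53 other mitosis genes 0 passed by edgeR in each comparison. An unadjusted p under 0.05 was found for 4, 2 and 2 of them, against 20.6%, 3.85% and 18% of all loci. DESeq2 called 1 (Dlgap5), 0 and 0, against 1617, 78 and 1349 of all loci, and limma-voom called 0 of the list. These genes had medians of -0.83, -0.99 and -0.09 in the order above, and 47 of the 53 (88.7%) were highest in wild type library 1. The smallest p belonged to Dlgap5, a spindle protein whose entry is joined with 1 other symbol, at 2.1 ± 1.3, 5.64 ± 1.88 and 10.4 ± 6.11 CPM (SD, n = 4) in recombined, unrecombined and wild type libraries. Its first difference was -2.29 (SE 0.662, adjusted p = 0.0545). Zwint, a kinetochore protein, had 85.1 ± 23.3, 116 ± 13.6 and 125 ± 16.4 CPM, with a first difference of -0.56 (SE 0.199, adjusted p = 0.121). In unrecombined against wild type libraries the smallest p values were those of Stmn1, which breaks down microtubules, and Ncapd2, a condensin subunit, at -1.81 (SE 0.731) and -1.45 (SE 0.641), both with an adjusted p of 1. The 4 libraries named above were the 4 highest in 24 of the 53 genes (45.3%).

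Of 37 other replication genes 0 passed by edgeR in each comparison. An unadjusted p under 0.05 was found for 3, 1 and 3 of them, against 20.6%, 3.85% and 18% of all loci. DESeq2 called 1 (Orc4), 0 and 1 (Pold2), against 1617, 78 and 1349 of all loci. Limma-voom called 0, 0 and 1 (Pold2), and edgeR with the replicate number as a block 1 (Pold2) in the third. The 37 genes had medians of -0.18, -0.23 and 0.12, and 20 (54.1%) were highest in wild type library 1. The smallest p values were those of Orc4 and Orc3, subunits of the origin recognition complex whose entries are joined with other genes. Their first differences were 0.49 (SE 0.152, adjusted p = 0.0694) and -0.47 (SE 0.155, adjusted p = 0.0914). Pold2, a polymerase delta subunit joined with Aebp1, differed by -1.08 in recombined against unrecombined libraries (SE 0.354, adjusted p = 0.106) and by 0.99 in unrecombined against wild type (SE 0.353, adjusted p = 1). Rfc2, a clamp loader subunit, had a second difference of -0.80 (SE 0.418).

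Among 25 other G1 cyclins, kinases, inhibitors and pocket proteins tested, Ccnd2 rose in the first comparison and Cdkn1c fell in the third. Of all loci tested 4.17% rose in the first and 2.14% fell in the third, so 1 gene of 25 in each is near those shares. Ccnd2 (chromosome 6, start 127075726), for cyclin D2, which with CDK4 and CDK6 opens the way to S phase, is in an entry joined with an older symbol. It was 54.3, 204, 70.5 and 206 CPM in recombined libraries, 76.3, 96.2, 58.8 and 73.7 CPM in unrecombined and 57.6, 24.9, 41.4 and 31.6 CPM in wild type libraries 1 to 4. Recombined libraries 2 and 4 were far above the rest, and recombined library 1 lay below wild type library 1. Ccnd2 rose in recombined against wild type libraries by 1.78 on the log2 scale (SE 0.406, adjusted p = 0.0187). It kept its direction in all 24 alternatives and missed the threshold in 6 of them, for example without recombined library 4 (adjusted p = 0.0569) or wild type library 2 (0.0593) or 4 (0.0697), with a range from 0.000201 to 0.0937. The other differences of Ccnd2 were 0.97 and 0.81, which did not pass. Of the markers of basal and myoepithelial cells, 8 of 9 rose in the same comparison. Their sums were 1708 to 7554 CPM in recombined, 371.4 to 1015 CPM in unrecombined and 737.8 to 945.2 CPM in wild type libraries. Ccnd2 was 58.8 to 96.2 CPM in unrecombined and 24.9 to 57.6 CPM in wild type libraries. Recombined libraries 2 and 3 had marker sums of 4374 and 4710 CPM, with Ccnd2 at 204 and 70.5 CPM. The part of these cells in the result was not tested.

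Cdkn1c (chromosome 7, start 150644243) encodes p57, an inhibitor of cyclin-dependent kinases. It was 0.657, 2.82, 1.83 and 0.618 CPM in recombined libraries, 8.11, 6.29, 9.02 and 9.41 CPM in unrecombined and 6.34, 1.66, 2.49 and 4.34 CPM in wild type libraries 1 to 4. All 4 unrecombined libraries lay above all 4 recombined ones, and 11.3% of all loci had no overlap between these groups in either direction. Cdkn1c fell by 2.47 on the log2 scale in recombined against unrecombined libraries (SE 0.561, adjusted p = 0.0189), and missed the threshold in 3 of 25 alternatives, with a range from 0.000189 to 0.151 and 0.0509 without unrecombined library 4. Fibroblast markers moved with it: 8 of 8 fell in the same comparison, and their sums were 205.1 to 571.3 CPM in recombined, 5113 to 7268 CPM in unrecombined and 1387 to 3392 CPM in wild type libraries; their part in the result was not tested.

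The other D cyclins did not pass: Ccnd1 was 311 ± 93.1, 309 ± 82.8 and 258 ± 68.6 CPM and Ccnd3 was 33.9 ± 4.78, 27.2 ± 2.93 and 26.2 ± 3.11 CPM (SD, n = 4) in recombined, unrecombined and wild type libraries. Both are in joined entries and were chosen after their values were seen. Of the 25 G1 genes tested, 1 rose and 0 fell in the first comparison, where 4.17% of all loci rose, 0 changed in the second, and 0 rose and 1 fell in the third, where 2.14% of all loci fell, with medians of 0.20, -0.08 and 0.27. At an unadjusted p under 0.05 there were 6, 1 and 5 of the 25, against 20.6%, 3.85% and 18% of all loci. DESeq2 called 3, 0 and 2, limma-voom 1, 0 and 1, and edgeR with the replicate number as a block 3 in the third (Cdkn1c, Tfdp2 and Myc). DESeq2 also called more of all loci: 1617, 78 and 1349, against 920 (6.55%), 0 (0%) and 733 (5.22%) by edgeR. Its higher counts in this list were not tested against those totals.

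Of 20 damage checkpoint and p53 target genes 0 passed by edgeR in each comparison. An unadjusted p under 0.05 was found for 2, 0 and 1 of them, against 20.6%, 3.85% and 18% of all loci. DESeq2 called 1 (Cdkn1a), 0 and 0, against 1617, 78 and 1349 of all loci, and limma-voom called 0 of the list. The 20 genes had medians of -0.23, -0.20 and -0.02. Cdkn1a, the p53 target that encodes the kinase inhibitor p21 and is also in the G1 list, had the smallest p. It was 153, 162, 325 and 186 CPM in recombined libraries, 101, 135, 181 and 75.9 CPM in unrecombined and 61.3, 110, 119 and 112 CPM in wild type libraries 1 to 4. The lowest recombined library exceeded the highest wild type library, as in 6.33% of all loci, and wild type library 1 was the lowest of the 12. Its first difference was 1.03 (SE 0.305, adjusted p = 0.0597), with adjusted p from 0.0114 to 0.447 over 24 alternatives. In recombined against unrecombined libraries Cdkn1a differed by 0.74 (SE 0.303, adjusted p = 0.202). With these libraries paired by number the adjusted p was 0.0508 in the fit of all 12 libraries and 0.03 in the fit of these 2 groups alone (difference 0.75), within a range from 0.03 to 0.825 over 25 alternatives. Gadd45a, another p53 target in a joined entry, had a first difference of -0.51 (SE 0.167, adjusted p = 0.092), and the second differences of smallest p in the list were -0.25 for Gadd45a and -0.25 for Plk2. Trp53 itself differed by 0.45 in recombined against unrecombined libraries (SE 0.223, adjusted p = 0.309).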

How the data were processed

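RNA of 12 libraries of sorted mammary epithelial cells was sequenced, 4 in each of 3 groups. The authors deposited raw counts per locus; STAR, HTSeq 0.3.1 and mm9 are named, per the submitters' processing notes, and their options, strand setting and annotation are not given in the sources used here. Of 36635 entries, 20114 name 1 locus, and the other 16521 (0.0617% to 0.101% of counts) were left out. All columns of sample values were used.

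Counts were tested in R 4.3.3 with edgeR 4.0.16 (TMM scaling, filterByExpr, robust quasi-likelihood F test on all 12 libraries). Benjamini-Hochberg adjustment covered 14039 loci, with a threshold of 0.05. A prior count of 2 was used for log2 CPM only, and the fit kept edgeR's default. The test was checked on simulated data. SE is the difference divided by the root of F. Alternatives were other scalings, DESeq2 1.42.0, limma 3.58.1 (voom), filters, a replicate block, the label number series and each library left out. Settings without 5 salivary-rich libraries, without recombined libraries 3 and 4, without joined entries, and with the block on 2 groups were chosen after seeing the data.

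Given in full are the 2 members of highest mean level in each of 9 roles, plus Mki67, Top2a, Ccnb1, Cdk1, Pcna, Mcm2 and E2f1; in other lists, genes past the threshold or else the 2 of smallest p. Members and lists were chosen with earlier results of these data known. Deviations of same-numbered recombined and unrecombined libraries correlated at 0.239 to 0.399 across loci, against -0.24 to -0.0345 for different numbers. These libraries were taken as pairs in fits with a block and not in the main fit. The labels name no animals, and what such libraries share was not tested. Numbers shared with wild type libraries gave -0.0314 to 0.185 and 0.00248 to 0.312, where different numbers reached 0.169 and 0.337. The block on all 12 libraries still joined wild type libraries by number, so its values against wild type rest on that grouping. No 2 libraries of a group agreed within sampling noise (chi-square per locus of 41.5 or more).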

Additional observations from a re-analysis of the deposited data

Results flagged for a closer look

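In each group of 4 libraries, the highest or lowest value was compared with the others by its gap over the range of the group (Dixon's critical value 0.83). Of 72 groups tested 22 stood out: 14 of unrecombined, 5 of recombined and 3 of wild type libraries. Chance alone flags about 1 in 20 where groups are independent and values normal. These groups share the same libraries and many of the genes rise together, so the 22 are not separate results. Where 2 libraries of a group are high the measure can flag neither, as for the mitotic sum in wild type libraries 1 and 4 (1634 and 699 CPM). The split between groups therefore does not rank their spread.

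Unrecombined library 4 lay above the other 3 of its group in 12 of these. It had 6.86 CPM for Mcm2, 56.9 CPM for Rrm1, 2.27 CPM for Ccnb1, 8.39 CPM for Ccnb2 and 5.64 CPM for Cdk1. It had 41.5 CPM for Cenpe, 39.4 CPM for Cenpf, 19.9 CPM for Prc1, 175 CPM for Mki67 and 97.8 CPM for Top2a. Its sums stood out as well, at 468 CPM for S phase and 739 CPM for mitotic genes. Recombined library 4 stood out in the same way for Cenpe (28.9 CPM), Cenpf (42.9 CPM), Top2a (91.2 CPM) and the mitotic sum (677 CPM). The same held in wild type library 1 for Uhrf1 (23.4 CPM), Mcm4 (73.6 CPM) and the S phase sum (651 CPM).

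Other single libraries stood out within their group as well. Pcna was high in unrecombined library 2 (136 CPM, others 100 to 104 CPM). Plk1 was low in recombined library 1 (20.4 CPM, others 27.8 to 28.8 CPM), and Kif20a in unrecombined library 2 (97.1 CPM, others 131 to 137 CPM).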

How the results depend on the processing

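Loci called in recombined against wild type libraries numbered 1617 with DESeq2, 594 with only the compared groups and 248 without recombined libraries 3 and 4, and 502 to 1217 with 1 library left out (lowest without wild type library 4; 600 without library 3 and 612 without library 2). Recombined against unrecombined gave 1349, 282 without recombined libraries 3 and 4, and 449 (without unrecombined library 1) to 1044. Unrecombined against wild type gave 78 with DESeq2, 18 with limma-voom and 8 with only the compared groups.

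Members called against wild type were 1 (Gins2) with DESeq2, the replicate block and the number series, and 0 to 1 with 1 library left out (1 without recombined library 4). With the replicate block, unrecombined against wild type gave 1 locus, and the paired comparison of recombined with unrecombined libraries gave 0 members.

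Among the other lists in recombined against wild type, G1 genes called were 3 with DESeq2, 0 with the 7 libraries low in salivary markers or without recombined libraries 3 and 4, and 0 to 2 with 1 library left out. Replication genes were 1 with DESeq2, 1 with the block and 0 to 1. Mitosis genes were 1 with DESeq2, 2 with the block, 1 with the 7 libraries and 0 to 1. Damage genes were 1 with DESeq2, 1 with the block and 0 to 1. In recombined against unrecombined, G1 genes were 2 with DESeq2, 3 with either block, and 0 with the 7 libraries or without recombined libraries 3 and 4. Replication genes were 1 with DESeq2, limma-voom, the block, the number series and without recombined libraries 3 and 4, and 0 to 1 with 1 left out. Mitosis genes were 1 with the 7 libraries and damage genes 1 (Cdkn1a) with the block on 2 groups.

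Signs turned in recombined against wild type without wild type library 1 for Uhrf1 (1.80, range with 1 library left out -1.34 to 1.80), Mcm2 (-0.95 to 0.16), Ccna2 (-0.79 to 0.17), Ccnb1 (-2.56 to 0.09), Prc1 (-1.03 to 0.02) and Top2a (-1.81 to 0.27), without recombined library 3 for Ccne2 (-0.19 to 0.34), and without recombined libraries 3 and 4 for E2f1 (-0.21). In unrecombined against wild type they turned without wild type library 1 for E2f1 (-0.43 to 0.78), Uhrf1 (-1.64 to 1.01), Rrm1 (-0.51 to 0.22), Ccna2 (-0.69 to 0.23) and Cdk1 (-2.26 to 0.61), and without library 2 for Mycn (-0.89 to 0.10). In recombined against unrecombined they turned without recombined libraries 3 and 4 for E2f1 (-0.10), Uhrf1 (-1.27) and Cenpf (-0.89), without recombined library 3 for Uhrf1 (-0.43 to 1.53) and Ccne2 (-0.19 to 0.33), and without unrecombined library 4 for Cdk1 (-1.52 to 0.41), Cenpe (-0.49 to 1.12) and Mki67 (-0.89 to 1.44). Another 85 of 1884 values changed sign within 1 SE with neither called.

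Medians of the members over settings that leave out no single library ran from -0.86 to -0.34, -1.04 to -0.48 and -0.27 to 0.26 in the 3 comparisons. The members of lowest mean level were Ccnb1, Mybl2, Aurkb and E2f2, each with 4 or fewer reads in its lowest library. Beyond the libraries left out, the cause was not tested.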
